A study of Mus musculus with 4 samples.

Results

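The genes described here are the G1 cyclins, their kinases and the inhibitors of those kinases: the D-type cyclins Ccnd1, Ccnd2 and Ccnd3, the kinases Cdk4 and Cdk6, the inhibitors Cdkn1b, Cdkn1c, Cdkn2c and Cdkn2d, and the kinases' substrate Rb1. They are 10 of the 32285 genes in the count matrices, chosen by name. They were measured in mouse bone marrow cells carrying CD45.2 and Kit and Sca1 but no lineage markers (CD45.2+Lin-Sca1+Kit+, the compartment that holds blood stem cells and multipotent progenitors), collected 10 weeks after transplantation. Each of 4 genotypes gave 1 library: an undeleted control, a deletion of Mll3, a deletion of Mll4, and a combined deletion (Mll3/4). Mll3 and Mll4 are older names of Kmt2c and Kmt2d, which encode related histone H3 lysine methyltransferases. The number of mice behind a library, the driver of the deletion and the host's remaining cells are not given in the sources used here. CITE-seq counted transcripts and 6 barcoded antibodies in the same cells, by droplet sequencing of transcript 3' ends. With 1 library per genotype, no difference between genotypes has a replicate check or a p-value. All intervals are 95% intervals that cover counting error only, and differences between mice or preparations lie outside them.

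D-type cyclins bind and activate Cdk4 and Cdk6, and these kinases phosphorylate the retinoblastoma protein Rb, which otherwise holds E2F transcription factors back from the genes needed for DNA synthesis. Cdkn2c (p18) and Cdkn2d (p19) bind Cdk4 and Cdk6 directly, while Cdkn1b (p27) and Cdkn1c (p57) act chiefly on the later cyclin E and cyclin A complexes of Cdk2. In blood, Cdkn1c and Cdkn1b are known for keeping stem cells out of cycle, Cdk6 for bringing them back into it, and Ccnd3 for driving the divisions of early B cells.

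Promoter sequences were found for 6 of the 10 genes (Ccnd3, Cdk4, Cdk6, Cdkn1b, Cdkn2c and Cdkn2d; 8 windows in all) in RefSeq, build GRCm38.p6. The other members are Ccnd1, Ccnd2, Cdkn1c and Rb1. The stretches upstream of the first exon are shown for Cdk4, which was lower in both libraries labelled with an Mll4 deletion, and for Ccnd3 and Cdkn1b, which were higher in the Mll3/4 library. Each is on the plus strand, and capitals mark the letters CACGTG, the E-box that Myc binds, which read the same on both strands.
Cdk4, chr10:127063285-127063533: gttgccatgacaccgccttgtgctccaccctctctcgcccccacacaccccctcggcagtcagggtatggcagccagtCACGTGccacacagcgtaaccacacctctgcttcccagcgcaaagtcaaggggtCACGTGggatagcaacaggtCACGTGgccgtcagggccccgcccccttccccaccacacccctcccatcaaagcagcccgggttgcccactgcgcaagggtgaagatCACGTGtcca
Ccnd3, chr17:47504801-47505050: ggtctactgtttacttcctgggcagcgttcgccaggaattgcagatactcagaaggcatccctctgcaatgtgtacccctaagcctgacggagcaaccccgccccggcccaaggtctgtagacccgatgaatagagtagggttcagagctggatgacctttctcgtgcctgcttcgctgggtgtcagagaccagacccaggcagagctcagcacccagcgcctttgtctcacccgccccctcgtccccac
Cdkn1b, chr6:134920151-134920400: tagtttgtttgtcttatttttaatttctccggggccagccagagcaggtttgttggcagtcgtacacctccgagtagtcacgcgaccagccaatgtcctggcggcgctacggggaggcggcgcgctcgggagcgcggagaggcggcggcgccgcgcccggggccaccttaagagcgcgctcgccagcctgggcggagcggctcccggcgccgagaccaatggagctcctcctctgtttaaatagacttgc
The Cdk4 stretch held CACGTG 4 times, starting 172, 118, 98 and 11 bases before the annotated start, and the other 2 stretches shown held none. Of 32851 RefSeq promoter windows of 300 bases, 7.15% held at least 1 CACGTG and 8 windows (0.0244%) held at least 4. In the 300-base windows of the 6 genes, CACGTG also occurred once for Cdk6 and once in 1 of the Cdkn2c windows. The letters TTTCGCGC, TTTGGCGC, TTTCCCGC or TTTGGCGG, searched on both strands as E2F sites, were in none of the 8 windows and in 2.37% of all windows. CAGGTG, the E-box bound by E2A, was likewise in none and in 20.2% of all windows. CCCNNGGG, the core of the EBF1 site, occurred once each for Cdk4, Cdk6 and Cdkn2d and in 1 Ccnd3 window, against 13.7% of all windows. These matches describe letters only, and factor binding was not measured.

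Between 4748 and 7274 cells per library were kept (at least 1000 genes detected and at most 10% of transcripts from mitochondrial genes), with 50792614 to 120700343 unique transcript molecules (UMIs) per library and median depths of 8920 to 21400 UMIs per cell. The Mll3/4 library was the shallowest. Any pair of libraries shared 9 to 22 barcodes. Levels are given as counts scaled to 1000000 UMIs of the library or cell group (CPM). Of the genes the labels name as deleted, Kmt2c stood at 68.9 CPM in control, 35.3 in Mll3, 61.3 in Mll4 and 42.3 in Mll3/4, and Kmt2d at 24.6, 21.6, 22.6 and 25.4. Kmt2d was thus not clearly lower where the label says Mll4 was deleted. Whether the counted 3' end lies outside the deleted exons is not given in the sources used here, so "the Mll4 library" and "the Mll3/4 library" stand below for libraries so labelled. A 7-gene B progenitor list summed to 28.9, 269.5, 31.7 and 11979.9 CPM in control, Mll3, Mll4 and Mll3/4, with all 7 genes detected in each library. A 6-gene blood stem cell list summed to 430.3, 435.6, 265.7 and 5.67 in the same order, so the stem cell markers expected of the labelled compartment were nearly absent from the Mll3/4 library. In the Mll4 library, 55.5% of cells carried transcripts of other lineages at 0.1% or more of their UMIs (the mast, macrophage, T and innate lymphoid, and mature B and plasma lists together), against 4.44% in control, 8.75% in Mll3 and 0.821% in Mll3/4. In sums over cells of several kinds, fewer cells of a type and less RNA per cell cannot be told apart.

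Across the 4 libraries the 10 genes differed most in Mll3/4, where the D cyclins exchanged places and the summed inhibitors were higher. Ccnd1, Ccnd2 and Cdk6 were at least 2-fold lower in Mll3/4 than in control, and Ccnd3, Cdkn1b, Cdkn2c and Rb1 at least 2-fold higher. That was 4 higher and 3 lower of the 9 members with a mean of at least 20 CPM. Cdkn1c, with a mean of 19.1, fell just under that minimum and Rb1, with 23.3, lay just over it, and Cdkn1c is described by its values only. Over all 6125 genes that passed, 6.07% were at least 2-fold higher and 10.5% at least 2-fold lower in Mll3/4. In Mll4, 1 member was higher (Rb1) and 1 lower (Cdkn2d), against 4.98% and 3.28% of all genes. In Mll3 no member was 2-fold higher or lower, against 1.09% and 0.457% of all genes. The members' median log2 ratio to control was 0.34 in Mll3, -0.31 in Mll4 and -0.42 in Mll3/4, beside 0.10, -0.13 and -0.11 over all genes tested. The 3 comparisons share the control library.

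**Figure D1:**
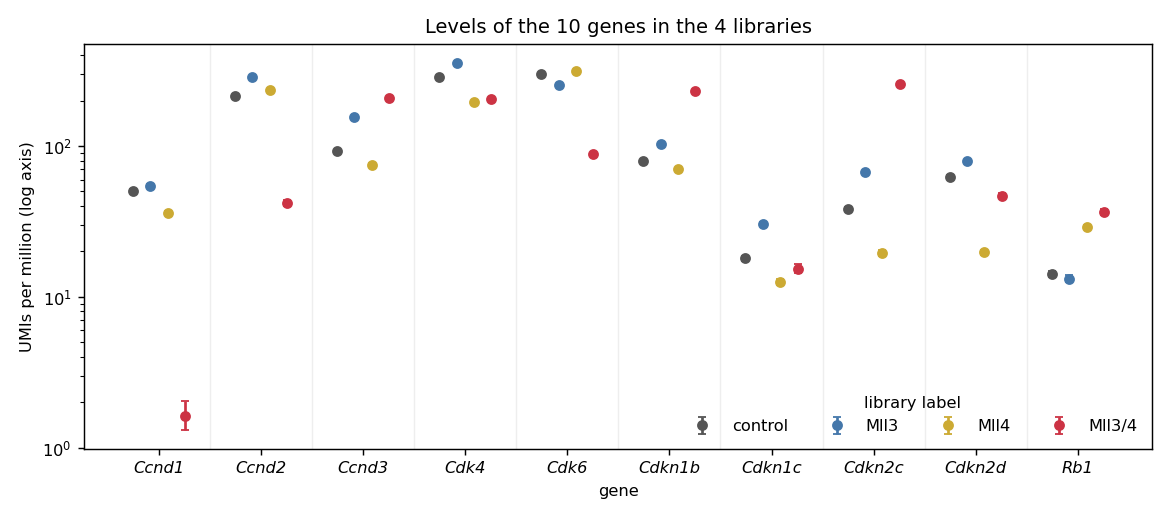
Level of each gene (CPM, log axis) in the 4 libraries, with points coloured by library label and bars giving 95% counting intervals. Ccnd1 is near 50 in control and Mll3 and at 1.63 in Mll3/4, while Cdkn2c is highest in Mll3/4 at 256.7.

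Among the cyclins, Ccnd1 (cyclin D1, chr7:144929931-144939925, minus strand, GRCm38) stood at 50.4 CPM in control, 54.6 in Mll3, 35.8 in Mll4 and 1.63 in Mll3/4 (6011, 5784, 4325 and 83 UMIs). The Mll3/4 library stood apart at the low end, 30.6-fold under control (log2 ratio -4.94, interval -5.28 to -4.63), and of the other 3 libraries Mll4 was the lowest. Ccnd2 (cyclin D2, chr6:127125162-127152193, minus strand) stood at 213.5 in control, 286.0 in Mll3, 237.5 in Mll4 and 41.9 in Mll3/4. It too was low only in Mll3/4 among these 4 libraries, 5.1-fold under control (log2 ratio -2.35, -2.42 to -2.29). Ccnd3 (cyclin D3, chr17:47505051-47599691, plus strand) stood at 93.2, 156.5, 75.3 and 208.5 in the same order. Mll3/4 was the highest library and Mll3 the next, with log2 ratios to control of 1.16 (1.12 to 1.20) and 0.75 (0.71 to 0.78).

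The exchange among the D cyclins can be read from their make-up. Of all D cyclin UMIs, Ccnd2 gave 59.8% in control, 57.5% in Mll3 and 68.1% in Mll4, but 16.6% in Mll3/4. Ccnd3 gave 26.1%, 31.5%, 21.6% and 82.7%, and Ccnd1 gave 14.1%, 11%, 10.3% and 0.648%. The summed D cyclin level moved less than its members: 357.0 CPM in control, 497.1 in Mll3, 348.6 in Mll4 and 252.0 in Mll3/4. Counts come from 3' ends and are not divided by transcript length, and capture may differ between genes, so shares are compared between libraries and not between genes.

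Of the kinases, Cdk4 (chr10:127063534-127067920, plus strand), the partner that D cyclins share with Cdk6, stood at 288.3 CPM in control, 355.7 in Mll3, 197.7 in Mll4 and 206.1 in Mll3/4. The 2 low libraries were those labelled with an Mll4 deletion, with log2 ratios of -0.54 (-0.57 to -0.52) and -0.48 (-0.52 to -0.45), short of 2-fold. In cells without granulocyte or other-lineage markers, the Mll4 ratio to control was smaller, at -0.25 (-0.29 to -0.21). Cdk6 (chr5:3341485-3531008, plus strand) stood at 301.8, 254.7, 317.1 and 88, and was low only in Mll3/4 among these libraries, 3.43-fold under control (log2 ratio -1.78, -1.82 to -1.73). Cdk4 gave 48.9% of the summed Cdk4 and Cdk6 UMIs in control, 58.3% in Mll3, 38.4% in Mll4 and 70.1% in Mll3/4. Their sum was 590.0, 610.4, 514.8 and 294.1 CPM, so Mll3/4 held the least of both kinases together.

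Among the inhibitors of Cdk4 and Cdk6, Cdkn2c (p18, chr4:109660876-109667189, minus strand) stood at 38.4 CPM in control, 67.3 in Mll3, 19.5 in Mll4 and 256.7 in Mll3/4. It was 6.68-fold over control in Mll3/4 (log2 ratio 2.74, 2.69 to 2.79). In Mll4 it lay 1.97-fold under control (log2 ratio -0.98, -1.05 to -0.91). Cdkn2d (p19, chr9:21288410-21291407, minus strand) stood at 62.7, 79.3, 19.7 and 46.9. Its low library was Mll4, 3.19-fold under control (log2 ratio -1.67, -1.74 to -1.61), and Mll3/4 lay between Mll4 and control at -0.42 (-0.49 to -0.35).

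Among the inhibitors of the cyclin E and A complexes, Cdkn1b (p27, chr6:134920401-134925513, plus strand) stood at 79.5, 103.5, 70.3 and 231.8 CPM in control, Mll3, Mll4 and Mll3/4. Mll3/4 was 2.92-fold over control (log2 ratio 1.54, 1.51 to 1.58) and the other libraries lay near control. Cdkn1c (p57, chr7:143458339-143461050, minus strand) stood at 18.0, 30.6, 12.6 and 15.4, with the highest level in Mll3 and the lowest in Mll4. The 4 inhibitors together gave 198.6 CPM in control, 280.7 in Mll3, 122.0 in Mll4 and 550.8 in Mll3/4. Cdkn2c gave 19.3%, 24%, 16% and 46.6% of those UMIs and Cdkn2d 31.6%, 28.3%, 16.1% and 8.51%.

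Rb1 (chr14:73183673-73325822, minus strand), whose product the D cyclin kinases inactivate, stood at 14.2 CPM in control, 13.2 in Mll3, 29.1 in Mll4 and 36.5 in Mll3/4. Control and Mll3 had overlapping counting intervals (13.6 to 14.9 and 12.6 to 13.9), and both libraries labelled with an Mll4 deletion were higher, with log2 ratios of 1.03 (0.95 to 1.12) and 1.36 (1.26 to 1.46). The Mll4 ratio was 0.27 (0.10 to 0.43) in cells without granulocyte or other-lineage markers, which ends that call, and the Mll3/4 call held there. Other annotated genes overlap Ccnd1, Ccnd2, Ccnd3, Cdk4, Cdk6, Cdkn1c and Rb1 on the opposite strand. For Rb1, Gm17233 and Mir687 lie on the same strand, and of these only Gm17233 is in the count matrices. Whether the counting used strand is not given in the sources used here, so reads of those neighbours may not be separable. No gene overlaps Cdkn1b, Cdkn2c or Cdkn2d.

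**Figure D2:**
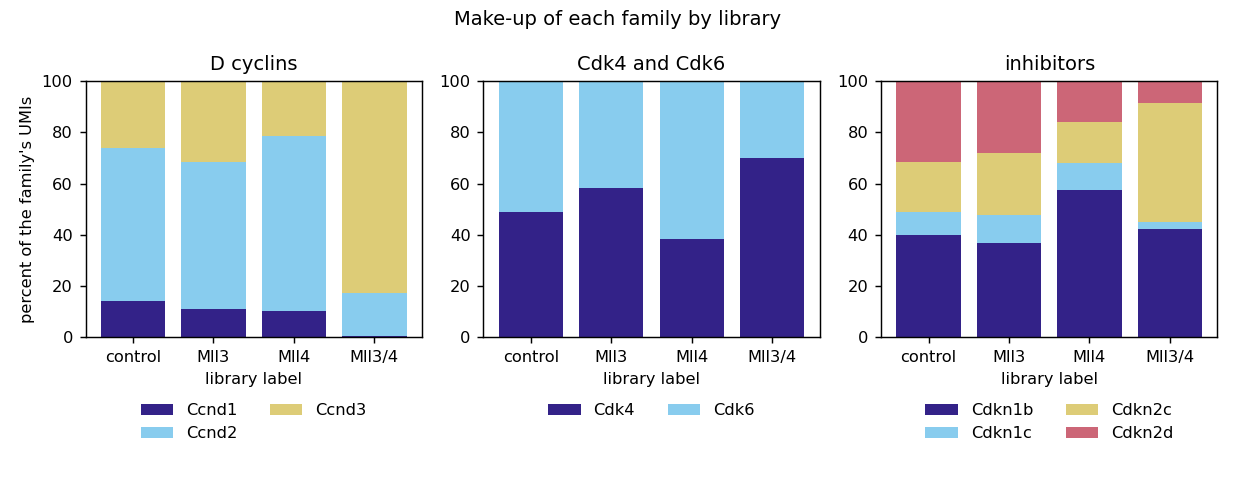
Share of each family's UMIs (percent, stacked bars from 0 to 100) given by each gene, for the D cyclins, the 2 kinases and the 4 inhibitors, in each library. Ccnd3 fills 82.7% of the D cyclin bar in Mll3/4 and 26.1% in control.

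The share of cells with at least 1 UMI of a gene was compared after each cell had been thinned to 3000 UMIs, which left out 14, 17, 134 and 33 shallower cells. Ccnd1 was detected in 12.9% of control cells, 13.9% of Mll3, 8.44% of Mll4 and 0.509% of Mll3/4 cells, or 43.3%, 44.6%, 29.9% and 1.5% without thinning. Cells with granulocyte markers, set beside these for comparison, held Ccnd1 in 5.88%, 4.72% and 0.719% in control, Mll3 and Mll4. Their median depth was 25841.5, 25450.0 and 43185.0 UMIs, against 14479.0, 15417.5 and 22212.0 over all cells of these libraries. The Mll3/4 library had 1 granulocyte marker cell and thus no such set of its own. The other libraries had higher Ccnd1 levels over all cells, so their granulocyte marker cells set no background for Mll3/4. The 83 Ccnd1 UMIs of Mll3/4 are divided among sets of cells further on. Cdkn2c was in 9.5%, 16.8%, 4.1% and 52.8% of thinned cells (39.3%, 58.5%, 27.4% and 84.1% without thinning), and in 6.86%, 11.3% and 5.22% of the granulocyte marker cells of the first 3 libraries. In Mll4 the granulocyte marker cells thus had a higher Cdkn2c share (5.22%) than all cells (4.1%). Such cells can hold these transcripts themselves and set no background level. Mll3/4 had the highest share of cells with Cdkn2c both with and without thinning. Cdkn1c was in 5.7%, 9.24%, 3.43% and 3.37% of thinned cells (22.0%, 32.7%, 16.4% and 12.1% without thinning). Among granulocyte marker cells, Cdkn1c was in 0 of 102 in control, which allows up to 3.55% by the exact binomial interval. The shares there were 0.943% in Mll3 and 0.45% in Mll4.

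The surface antibodies CD150 and CD48 part this compartment into groups. In normal marrow, CD150+CD48- cells are enriched for long-term stem cells, and CD150-CD48+ cells are progenitors with little self-renewal. In Mll3/4, 97.9% of cells held B progenitor list transcripts at 0.5% or more of their UMIs, and in Mll4, 55.5% carried other-lineage transcripts. In those 2 libraries the group names therefore stand for antibody signal only. Thresholds came from a mixture of 2 normal curves over all libraries on a centred log-ratio scale. CD150+CD48- cells made up 25.2% of control, 47.7% of Mll3, 7.87% of Mll4 and 38.8% of Mll3/4, and CD150-CD48+ cells 54.5%, 29.8%, 80.6% and 18.7%. Without centring, CD150+CD48- cells of Mll3/4 were 4.42% (210 cells), so that library's split depends on the antibody scale.

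Cdkn1c separated the antibody groups in 3 of the 4 libraries. It stood at 42.2 CPM in CD150+CD48- and 8.47 in CD150-CD48+ cells of control, 48.4 and 9.29 in Mll3, and 48.1 and 5.37 in Mll4. In Mll3/4 both groups were alike at 14.0 (12.3 to 15.8) and 14.1 (11.9 to 16.6). The log2 ratio between these groups was 2.32, 2.38 and 3.16 in control, Mll3 and Mll4 and -0.02 (-0.32 to 0.29) in Mll3/4, where it ranged from -0.07 to 0.32 over 6 other ways to group or count the cells. The low whole-library level of Cdkn1c in Mll4 thus sat beside a small CD150+CD48- group in which the gene was at 48.1, close to the 48.4 of Mll3.

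Ccnd2 followed the same order: 316.0 CPM in CD150+CD48- and 173.9 in CD150-CD48+ cells of control, 371.8 and 186.0 in Mll3, and 486.3 and 187.4 in Mll4. In Mll3/4 it was at 44.2 and 45.0, with overlapping intervals (41.2 to 47.4 and 40.9 to 49.3). Cdk6 ran the other way, at 180.5 and 352.9 in control (log2 ratio -0.97), with log2 ratios of -0.73 in Mll3, -0.51 in Mll4 and -0.15 in Mll3/4. Between the groups no passing member was 2-fold higher or lower in control (1.36% and 2.5% of all genes) or in Mll3 (1.89% and 3.87%), where Ccnd2 lay just under 2-fold (interval 0.96 to 1.04 on the log2 scale). In Mll4, Ccnd1 (1.74) and Ccnd2 (1.38) were higher and none was lower, against 4.34% and 6.66% of all genes. In Mll3/4 none was higher and Ccnd1 was lower on 21 against 29 UMIs (log2 ratio -1.28, -2.18 to -0.43), against 0.0327% and 1.84% of all genes. That last ratio turned to 0.12 with uncentred antibody counts.

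**Figure D3:**
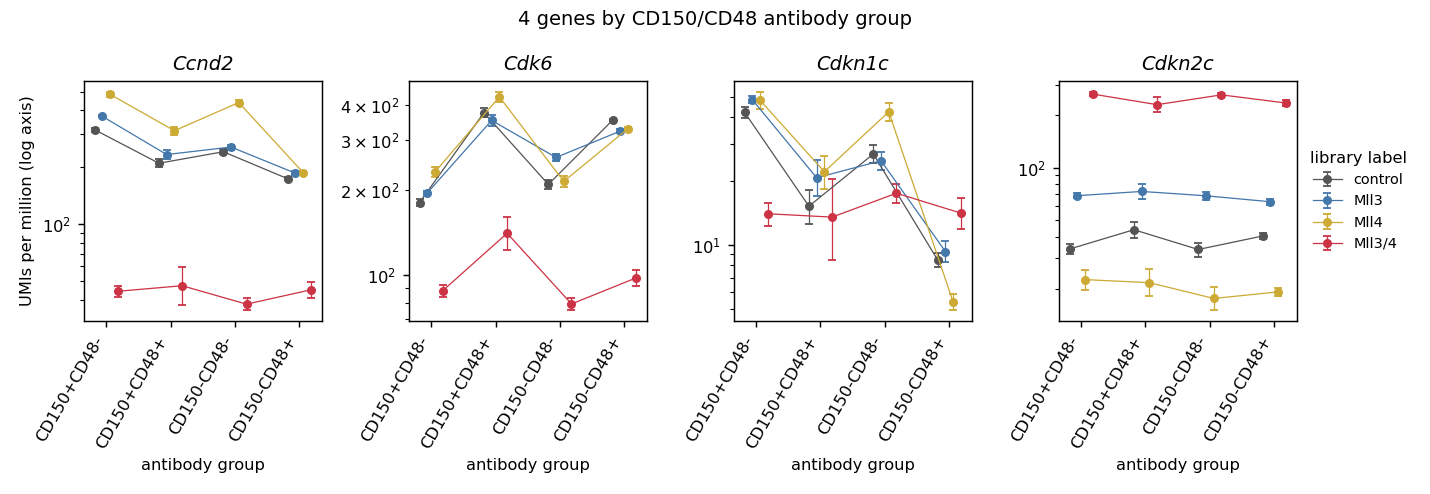
Levels of Ccnd2, Cdk6, Cdkn1c and Cdkn2c (CPM, log axes) in the 4 antibody groups, with lines joining the groups of 1 library and bars giving 95% counting intervals. The Cdkn1c line drops from 42.2 to 8.47 between the first and last group in control and is level, at 14.0 and 14.1, in Mll3/4.

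Within antibody groups the Mll3/4 differences recurred. Members called at 2-fold in Mll3/4 against control numbered 4 higher and 3 lower in CD150+CD48- (17.7% of all genes differed by 2-fold), 3 and 4 in CD150+CD48+ (18.7%), 4 and 3 in CD150-CD48- (18.0%), and 4 and 3 in CD150-CD48+ (16.5%). Ccnd1 was lower in all 4 groups, with log2 ratios from -5.66 to -3.73, Ccnd2 from -2.84 to -1.95 and Cdk6 from -1.85 to -1.03. Cdkn2c was higher in all 4, from 2.39 to 2.96, Cdkn1b from 1.38 to 1.73 and Ccnd3 from 1.04 to 1.23. Rb1 was at 1.37 to 1.39 in 3 groups and at 0.84 in CD150+CD48+, where Cdkn2d was lower (-1.25). These groups share 1 library and its B progenitor transcripts, so they are no replicates of each other.

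In Mll4, Cdkn2d was lower in each of the 4 groups, with log2 ratios from -1.70 to -1.40. Its levels were 22.6, 33.0, 18.5 and 18.7 CPM in CD150+CD48-, CD150+CD48+, CD150-CD48- and CD150-CD48+ cells of Mll4, against 72.6, 86.9, 60.1 and 57.4 in control. Cdkn2c was lower in the CD150+CD48+ group (-1.01) and in the CD150-CD48+ group (-1.07), and Rb1 was higher in the latter (1.20) and at 0.28 to 0.39 in the other 3 groups. Members called were thus 1, 2, 1 and 3 of 9 in the order above, against 5.36%, 4.9%, 5.76% and 10.1% of all genes. In Mll3, Cdkn2c was higher in CD150+CD48- (1.02) and CD150-CD48- cells (1.03) and Ccnd3 in CD150-CD48+ cells (1.12), and none was called in CD150+CD48+. The background there was 2.14%, 1.68%, 2.29% and 2.79% of all genes.

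Rb1 in the Mll4 library differed between the other cell types it held. Mast marker cells (markers at least 0.5% of a cell's UMIs) made up 14.3% of Mll4 cells and held Rb1 at 61.8 CPM, macrophage marker cells made up 6.86% at 80.7, mature B and plasma marker cells 14.1% at 57.0, and granulocyte marker cells 23.9% at 21.8. Their Rb1 UMIs numbered 338, 322, 687 and 1076 of the library's 3512, and a cell may belong to more than 1 of these classes. Granulocyte marker cells thus lay below the 29.1 CPM of the whole Mll4 library. In control, Rb1 was at 22.4 CPM (15.5 to 31.3) in 88 mature B and plasma marker cells. It was at 14.1 (10.0 to 19.2) in 103 granulocyte marker cells of control. Rb1 was therefore also higher in Mll4 within these classes. Control held only 1 mast and 6 macrophage marker cells. The 6-gene mast list summed to 15.5, 7.03, 1558.3 and 1.75 CPM in control, Mll3, Mll4 and Mll3/4, and all 6 genes were detected in Mll4 while 3, 4 and 5 were at 0 in the others. In the 681 Mll4 cells and 5232 control cells without granulocyte or other-lineage markers, Rb1 was at a log2 ratio of 0.27 (0.10 to 0.43). In those same cells Cdkn2d was still lower (-1.36, -1.49 to -1.24), Cdkn2c was at -0.77, and Ccnd1 (0.59), Ccnd2 (0.81) and Cdkn1c (0.74) were above control. Ccnd1 and Cdkn1c thus changed side, from -0.49 and -0.52 over all cells. These cells were sorted as lineage-negative, and the part of these cell types beyond the values given was not tested.

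Cells were next split by their UMIs of 32 division genes (16 of S phase and 16 of G2 and M phase), counted after thinning to 3000 UMIs. Cells with 6 or more such UMIs made up 51.1% of control, 54.7% of Mll3, 42.3% of Mll4 and 37.3% of Mll3/4. They were also deeper, with medians of 20081, 19988.5, 38600 and 13042 UMIs against 10077, 11102.5, 12108 and 6727.5 in cells with 0. Cdk4 was higher in the dividing cells of all 4 libraries: its log2 ratio of cells with 6 or more to cells with 0 was 0.95, 1.05, 1.83 and 0.86 in control, Mll3, Mll4 and Mll3/4. Cdk6 was at 0.99, 1.15, 1.77 and 0.38, and Ccnd2 was lower in the dividing cells of all 4, at -0.74, -1.05, -0.73 and -1.03. With the G2 and M genes alone the kinases' ratios were smaller, at 0.37, 0.51, 0.89 and 0.43 for Cdk4 and 0.60, 0.61, 0.86 and 0.23 for Cdk6, and those of Ccnd2 were further from 0, at -1.09, -1.34, -1.24 and -1.77. Which kinds of cells made up each class was not compared. In Mll4, Cdk4 was at 219.0 CPM in granulocyte marker cells. It was at 109.7, 36.3 and 50.8 in mast, macrophage, and mature B and plasma marker cells of that library.

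In Mll3/4, Cdkn1c, Cdkn2d and Rb1 were concentrated in the dividing cells. Cdkn2d stood at 12.1, 12.4, 10.5 and 81.3 CPM in Mll3/4 cells with 0, 1-2, 3-5 and 6 or more division UMIs. The first 3 classes were level and the last stood apart, a log2 ratio of 2.74, against 0.49 in control (50.1 to 70.5). In Mll3 it was 0.74 and in Mll4 1.24, so Cdkn2d was higher in the dividing cells of all 4 libraries and most so in Mll3/4. Cdkn1c, which was lower in the dividing cells of control (35.4 to 13.0, log2 ratio -1.45), stood at 6.48, 6.5, 7.41 and 23.9 in Mll3/4 (1.86). Rb1 stood at 18.7, 19.5, 25.1 and 51.7 in Mll3/4 (1.46), and from 12.7 to 14.6 between the first and last class of control (0.19). In Mll3 and Mll4 the ratios were -0.68 and 0.26 for Cdkn1c and 0.40 and -1.18 for Rb1. With the G2 and M genes alone, the Mll3/4 ratios were 3.53 for Cdkn2d, 1.98 for Cdkn1c and 1.42 for Rb1. The Cdkn2d ratio was then 1.18 in control, 1.33 in Mll3 and 1.84 in Mll4. Cdkn1c was at -1.07, -0.58 and -0.49 in the same order, and Rb1 at -0.26, -0.04 and -1.17. Cdkn1c in Mll4 and Rb1 in control and Mll3 thus changed sign.

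The ratio of Mll3/4 to control for these genes therefore differed between the classes. Cdkn2d was at a log2 ratio of -2.04 in cells with 0 division UMIs and 0.21 in cells with 6 or more, Cdkn1c at -2.43 and 0.88, and Rb1 at 0.56 and 1.83. The D cyclins and Cdkn1b moved little between the classes: Ccnd1 was at -5.02 and -4.83, Ccnd2 at -2.32 and -2.61, Ccnd3 at 1.15 and 1.28, and Cdkn1b at 1.5 and 1.46. Cdkn2c was at 3.49 and 2.44. These differences between classes were not tested. Among cells with 0 division UMIs, the CD150+CD48- to CD150-CD48+ ratio of Cdkn1c was 2.71, 3.59 and 4.02 in control, Mll3 and Mll4 and -0.13 (-1.70 to 1.82) in Mll3/4. The Mll3/4 value rests on 36 Cdkn1c UMIs in all cells of that class. Its interval lies below the ratios of the other libraries. A contrast inside that interval, in either direction, was not detectable at this depth.

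**Figure D4:**
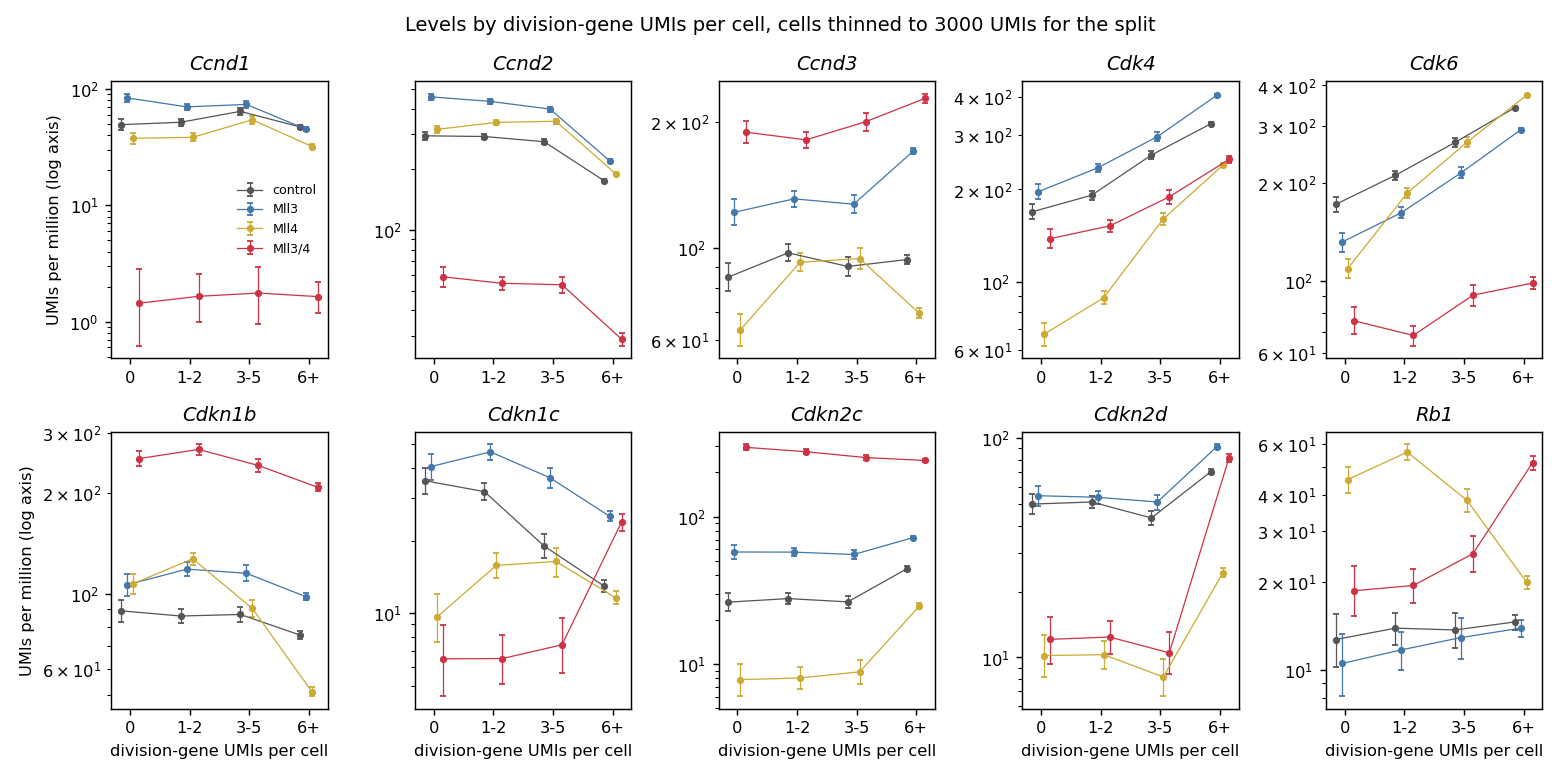
Level of each gene (CPM, log axes) in cells with 0, 1-2, 3-5 or 6 and more division-gene UMIs, with lines joining the classes of 1 library and bars giving 95% counting intervals. In Mll3/4, Cdkn2d stays between 10.5 and 12.4 over the first 3 classes and is at 81.3 in the last.

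B progenitor transcripts moved with the Mll3/4 differences, so the members were also read in cells holding them (at least 0.5% of the cell's UMIs). Such cells numbered 16 in control, 133 in Mll3, 10 in Mll4 and 4649 in Mll3/4, which is 97.9% of that library. The 133 Mll3 cells are the largest such set outside Mll3/4. The 16 control cells had Ccnd3 at 652.2 CPM (570.8 to 742.0), Ccnd2 at 129.9 and Ccnd1 at 8.47. Control cells with less than 0.1% had these at 91.5, 213.7 and 50.5. Cdkn2c was at 79.1 and 38.3 in these 2 sets, and Cdkn1b at 76.2 and 79.5. The 10 Mll4 cells had Ccnd3 at 639.5 (542.5 to 748.9). Sets this small were not compared further. Against the 5912 Mll3 cells with less than 0.1%, the 133 Mll3 cells had Ccnd3 at 846.4 and 129.3 CPM (log2 ratio 2.71), Cdkn2d at 165.7 and 76.4 (1.12), Ccnd1 at 12.6 and 56.3 (-2.15) and Ccnd2 at 92.6 and 293.7 (-1.66). Those were the 2 higher and 2 lower of the 9 members, against 6.33% and 13.6% of all genes. Cdkn1b did not separate these cells (102.6 and 103.6), and Cdkn2c differed by 0.53 on the log2 scale (95.7 and 66.3). Low Ccnd1 and Ccnd2 and high Ccnd3 were therefore also found in Mll3 cells with B progenitor transcripts, and in the 16 such cells of control.

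Set beside those Mll3 cells, the Mll3/4 cells with B progenitor transcripts had Cdkn2c at 261.2 CPM against 95.7 (log2 ratio 1.45, 1.28 to 1.62) and Cdkn1b at 236.4 against 102.6 (1.20, 1.05 to 1.37). These were the 2 members higher. The other way, 6 were lower: Ccnd1 at 1.15 against 12.6 (-3.45), Ccnd2 at 39.3 against 92.6 (-1.24), Ccnd3 at 212.5 against 846.4 (-1.99), Cdk4 at 203.5 against 428.7 (-1.08), Cdk6 at 84.5 against 213.4 (-1.34) and Cdkn2d at 47.0 against 165.7 (-1.82). Over all genes, 10.4% were higher and 12.8% lower. Ccnd3 was thus higher in Mll3/4 than in control over whole libraries and lower when cells with B progenitor transcripts were compared. Their median depths were 8826 and 23441 UMIs, and their stages of B cell development were not compared.

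A small set of Mll3/4 cells stood apart from the rest of their library: 27 cells, 0.569% of it, had less than 0.1% B progenitor transcripts. They held 23 of the library's 83 Ccnd1 UMIs (27.7%), at 32.4 CPM (20.5 to 48.6) against 1.15 in the 4649 cells. They had Ccnd2 at 195.8, Cdk6 at 314.1, Cdkn1b at 83.1, Cdkn2c at 45.1 and Rb1 at 14.1. Against the whole control library, the log2 ratios of 8 of the 10 genes had intervals that include 0, and Ccnd1 (-0.61, -1.30 to -0.05) and Cdkn2d (-0.80, -1.46 to -0.27) were the exceptions. Among the 8, the intervals of Cdkn1c on 9 UMIs (-1.64 to 0.42) and Rb1 on 10 (-1.08 to 0.87) do not exclude a 2-fold difference. No barcode of the 27 cells was a barcode of another library, and their median depth was 25883 UMIs, against 8920 over the library. Whether these cells carried the deletions was not tested.

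**Figure D5:**
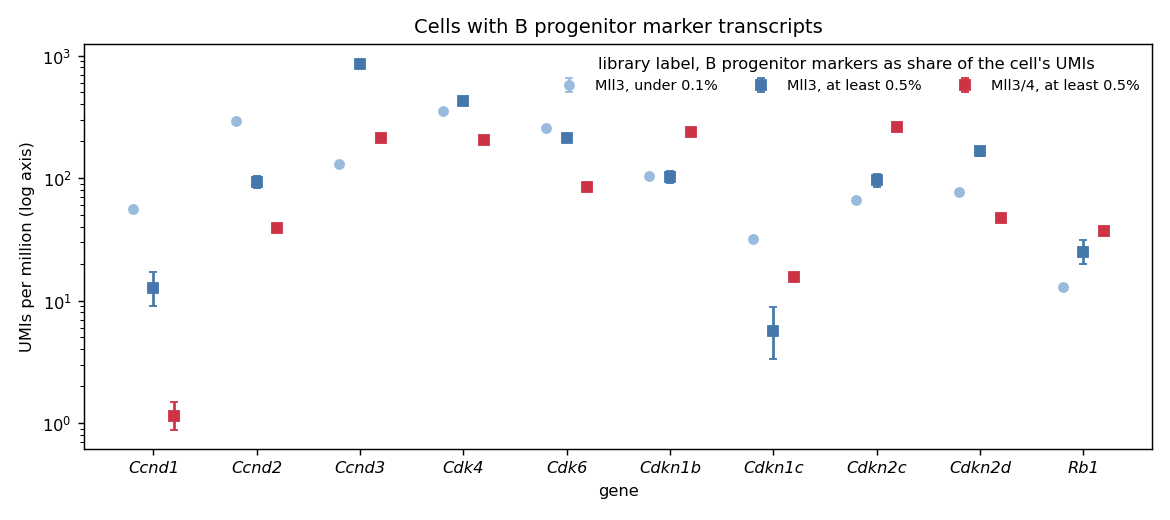
Level of each gene (CPM, log axis) in Mll3 cells with under 0.1% and at least 0.5% B progenitor transcripts and in Mll3/4 cells with at least 0.5%, bars giving 95% counting intervals. Ccnd3 is at 846.4 in the Mll3 cells with these transcripts, above the 212.5 of the Mll3/4 cells, while Cdkn2c is at 95.7 and 261.2.

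Of 28 other genes of the G1 to S pathway, 21 had a mean of at least 20 CPM. In Mll3/4, 3 of the 21 were at least 2-fold higher and 1 lower, against 6.07% and 10.5% of all genes. The higher ones were E2f2, an activating E2F (log2 ratio 4.28, from 9.54 to 185.8 CPM), Ccne2, cyclin E2 (1.74, 12.7 to 42.5), and Skp2, which targets Cdkn1b protein for degradation (1.18, 20.5 to 46.3). The lowest ratios belonged to Cdt1, a licensing factor for replication (-1.05, 42.9 to 20.7), then E2f6 (-0.89) and E2f1 (-0.74). E2f2 was also higher in the Mll3 cells with B progenitor transcripts (103.3 CPM) than in the other Mll3 cells (10.1).

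In Mll4, 1 of the 21 pathway genes was higher and none lower, against 4.98% and 3.28% of all genes. It was Ccne2 at 41.8 CPM (1.72), a level close to its 42.5 in Mll3/4. E2f3 (0.39) and Mnat1 (0.32) came next, and E2f2 (-0.72), Fbxw7 (-0.52) and Tfdp2 (-0.49) were lowest. In Mll3 none was called, against 1.09% higher and 0.457% lower of all genes. E2f2 (0.49), Ccna2 (0.37) and E2f1 (0.33) were highest there, and Mnat1 (-0.33), Rbl2 (-0.22) and E2f8 (-0.10) lowest. The median log2 ratio of the 21 genes was 0.16 in Mll3, 0.04 in Mll4 and -0.12 in Mll3/4.

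Over the 16 library and antibody group values, centred within each library, the genes most like Ccnd2 were Ahi1 (Pearson r = 0.973), Prxl2a (0.969) and Pard3b (0.964). The genes most like Cdk6 were Mbnl3 (0.972), Cntrl (0.938) and Sf3b4 (0.934), and those most like Cdk4 were Mrps10 (0.952), Gemin6 (0.946) and Hat1 (0.939). The most alike gene for each other member over the minimum was Dgcr6 for Ccnd1 (0.945), Dnajc21 for Ccnd3 (0.859), Foxo3 for Cdkn1b (0.823), Scaf11 for Cdkn2c (0.866), C1galt1 for Cdkn2d (0.921) and Atg3 for Rb1 (0.937). The second and the third after these ran from 0.811 to 0.919. Some members hardly varied between groups. The standard deviation of their centred log2 values was 0.0741 for Cdkn1b and 0.118 for Cdkn2c, against 0.413 for Ccnd1. Groups of 1 library share its preparation and depth, and these values only describe which levels moved alike.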

How the data were processed

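The authors deposited raw UMI counts per gene, antibody and barcode for 4 libraries. Per the submitters' processing notes they were made with Cell Ranger 6.1.1 on mm10, and the rule by which barcodes were kept is not given in the sources used here. Of 7682, 6560, 7702 and 5136 deposited barcodes (control, Mll3, Mll4, Mll3/4), 7274, 6101, 4793 and 4748 with at least 1000 genes and at most 10% mt- UMIs were kept. Doublets were not removed: Scrublet (scanpy 1.11.5) called 1, 1, 169 and 0 by its own threshold, and removing the highest scores (423, 298, 184 and 180 cells, 0.8% per 1000 cells) was tried instead.

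UMIs were summed per library or cell group and scaled to 1000000 UMIs of it (CPM). Log2 ratios had 0.5 UMIs added, with exact binomial intervals. A member was called at 2-fold among the 6125 genes averaging 20 CPM or more over the libraries. Antibody thresholds came from a 2-component mixture (scikit-learn 1.9.0). edgeR 4.0.16 in R 4.3.3 gave TMM scaling factors only, and no count model was fitted, since each genotype has 1 library. Python 3.11.15, numpy 2.4.6, scipy 1.17.1 and matplotlib 3.10.9 were used, and the calculations were tested on simulated data. Named were all 10 members, the 3 highest and 3 lowest pathway genes per comparison, and the 3 genes most like each passing member. Gene positions are from GENCODE M21 on GRCm38. Members, lists and tests were chosen with earlier results of these data known. Alternatives of scaling, minimum, fold, cell filter, doublets, cell weight, antibody scale and other-lineage cells were tried. Classes by B progenitor and granulocyte markers, and ratios within division classes, were added after seeing the data.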

Additional observations from a re-analysis of the deposited data

Results flagged for a closer look

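For 2 genes the log2 ratio to control was at least 0.5 on opposite sides of 0 in different antibody groups, with counting intervals that exclude 0. Cdk6 in Mll3 and Mll4 also lay on both sides of 0, by less than that. The difference between groups was not tested. Ccnd1 in Mll4 was above control in CD150+CD48- (log2 ratio 0.53) and CD150-CD48- cells (0.57) and below it in CD150-CD48+ cells (-0.88). Cdkn1c in Mll4 was above control in CD150+CD48+ (0.54) and CD150-CD48- cells (0.66) and below it in CD150-CD48+ cells (-0.66). Cdkn1c in Mll3/4 was above control in CD150-CD48+ cells (0.74) and below it in CD150+CD48- (-1.59) and CD150-CD48- cells (-0.62).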

How the results depend on the processing

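The 7 calls of Mll3/4 against control held in number under each alternative except a minimum of 100 CPM, which tests fewer genes and left 2 of the 4 higher and 2 of the 3 lower. Over all alternatives, 145 values for whole comparisons stayed within 1.5 times of those reported or within their spread, and 37 moved. For single genes, 521 stayed, 330 moved beyond their counting interval, and 1 changed sign after being called: Ccnd1 between antibody groups of Mll3/4, 0.12 with uncentred antibody counts. The cause of the changes below was not tested, except where a looser fold or another minimum makes them by construction.

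In Mll4, the 1 higher member (Rb1) became 0 without mitochondrial and ribosomal genes in the total, at a minimum of 100, without other-lineage cells (with or without granulocyte marker cells removed too), and with at least 2000 genes and at most 5% mt- UMIs. The 1 lower member became 0 at a minimum of 100, and 2 without mitochondrial and ribosomal genes, at 1.5-fold, with doublet scores removed, with equal weight per cell, and with the stricter cell filter. In Mll3, 2 were higher at 1.5-fold. Pairs called within antibody groups went in Mll3 from 3 to 6 at 1.5-fold and 1 in CD135- cells, and in Mll4 from 7 to 13 at 1.5-fold and 4 without other-lineage cells. In Mll3/4, uncentred counts left 91 cells in CD150+CD48+, under the minimum of 100, so its pairs are not given.

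Between antibody groups, 1 member instead of 0 was higher in Mll3 with uncentred counts, at 1.5-fold, with doublet scores removed and in CD135- cells, and in control at 1.5-fold. Instead of 0, 1 was lower in Mll3 at 1.5-fold, in Mll4 at 1.5-fold and with equal weight, and in control with uncentred counts, at 1.5-fold, with equal weight and in CD135- cells. The 1 lower in Mll3/4 became 0 with uncentred counts or equal weight. Pathway genes at a minimum of 5 CPM were 1 higher in Mll3, 3 in Mll4 and 7 in Mll3/4 (0, 1 and 3 as reported). The 1 lower in Mll3/4 became 0 with TMM scaling and 5 at 1.5-fold, and 1 was lower in Mll4 at 1.5-fold. No paired analysis was possible because each genotype has 1 library. Depth limits the members most in Mll3/4, where Ccnd1 rests on 83 UMIs and Cdkn1c on 784.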

Other observations

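Below the minimum of 20 CPM lay 4 further inhibitors and cyclins of the pathway whose highest level was in Mll3/4. They were chosen after their values were seen. Cdkn1a (p21), an inhibitor induced by p53, stood at 7.57, 8.27, 13.4 and 41.4 CPM in control, Mll3, Mll4 and Mll3/4. Ccne1 (cyclin E1), the activating partner of Cdk2, stood at 5.52, 8.6, 11.8 and 39.8. Cdkn2a, the locus of p16 and p19Arf, stood at 0.126, 1.05, 0.481 and 21.8 (15, 111, 58 and 1105 UMIs). Within Mll3, Cdkn2a was at 3.45 in the 133 cells with B progenitor transcripts and 0.978 in the other cells, and in Mll3/4 the 27 cells without those transcripts held 0 UMIs of it. Cdkn2b, its neighbour, was at 0 in control and 1.38 in Mll3/4.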
